A study of Mus musculus with 10 samples.

Results

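The aryl hydrocarbon receptor pathway was followed in the chromatin of ILC2s through 6 genes: *Ahr*, the receptor; *Arnt*, its partner; *Ahrr*, its repressor; and *Cyp1a1*, *Cyp1b1*, and *Tiparp*, known target genes. A region of the count table belonged to one of them when its centre lay inside the gene or had its nearest RefSeq transcription start site (TSS) there. Of 50039 regions, 31 were chosen in this way, namely 20 at *Ahr*, 3 at *Ahrr*, 2 at *Arnt*, 1 at *Cyp1a1*, 1 at *Cyp1b1*, and 4 at *Tiparp*. Each region is named here by its gene and the distance of its centre from the main TSS, with a minus sign for upstream. The main transcript of a gene is its lowest-numbered curated RefSeq mRNA, which need not be the form most used in ILC2s. Assignment by distance says nothing of which gene a region controls.

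ATAC-seq, in which the Tn5 transposase inserts adapters into open chromatin so that reads at a region report its accessibility, was performed on ILC2s of the bone marrow (BM), lung, pancreas, large intestine (LI), and small intestine (SI). Every tissue had 2 libraries of 50000 ILC2s, all from wild-type C57BL/6 males aged 6 weeks, in pools of 16 mice for BM, lung, and pancreas and of 10 for LI and SI. BM cells were gated as Lin- ST2+ CD25+ on a sorter of their own, cells of LI, lung, and pancreas as Lin- CD45+ CD127+ ST2+ CD25+, and cells of SI by low Thy1 and KLRG1 in place of ST2 and CD25. Intestinal tissue alone was shaken with dithiothreitol and EDTA before digestion, while lung and pancreas were digested directly and marrow was flushed. For BM and SI, tissue, gate, isolation, and, for BM, sorter cannot be told apart. LI, lung, and pancreas shared a gate, but between LI and the other 2 tissue and isolation cannot be told apart. Intestine against the rest also divides pools of 10 mice from pools of 16. Neither can the share of cells with an open region and its openness per cell be told apart.

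Ahr is a ligand-activated transcription factor that senses dietary, microbial, and tryptophan-derived molecules and is known for its part in intestinal lymphocytes. Without ligand it is held in the cytosol by chaperones. With ligand it enters the nucleus, pairs with Arnt, and binds sites with the core GCGTG, among others at its own negative regulators. Ahrr competes for Arnt, the Cyp1 enzymes break down ligands, and Tiparp ADP-ribosylates the receptor.

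In short, all 3 regions of *Ahrr*, the only region of *Cyp1a1* and of *Cyp1b1*, and 2 of 4 at *Tiparp* were called higher in the intestine. So were 10 of 20 at *Ahr*, against 14.9% of all regions. The sum over the *Tiparp* regions was not called (log2 0.18, adjusted p = 0.192, edgeR). Nor were the promoters of *Ahr*, *Arnt*, and *Tiparp* called different between intestine and the rest. The TSS region of *Ahrr* was 7.54-fold higher in intestinal ILC2s, the region of *Cyp1a1* 4.27-fold, that of *Cyp1b1* 2.19-fold, and an intronic region of *Tiparp* 3.78-fold, with 4 intestinal and 6 other libraries.

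The sequences under 4 regions, the *Ahrr* TSS, *Ahrr* +32.1 kb, *Cyp1a1*, and *Cyp1b1*, are shown because they hold several copies of the core that Ahr and Arnt bind. Other regions with several cores were not called in the intestinal contrast (*Tiparp* +1.1 kb holds 7, the *Ahr* promoter 4, and the *Tiparp* promoter 3). For contrast, 1 intronic region of *Ahr* and 1 of *Tiparp* are shown, since they opened in the intestine with few cores or none. Each stretch was chosen as the part of its region, outside exons, that holds the most cores. Capitals mark GCGTG or its reverse complement CACGC. All were read from the RefSeq assembly of mm10, 5′ to 3′ on the strand of the gene.
Ahrr TSS region, directly upstream of the main TSS, minus strand, chr13:74292332-74292591: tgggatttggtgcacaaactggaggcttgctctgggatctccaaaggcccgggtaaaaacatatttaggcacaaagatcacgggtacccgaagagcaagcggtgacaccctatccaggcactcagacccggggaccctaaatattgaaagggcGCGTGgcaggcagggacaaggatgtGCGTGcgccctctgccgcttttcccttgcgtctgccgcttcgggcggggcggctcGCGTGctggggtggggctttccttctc
Ahrr +32.1 kb, intron 3, minus strand, chr13:74259942-74260181: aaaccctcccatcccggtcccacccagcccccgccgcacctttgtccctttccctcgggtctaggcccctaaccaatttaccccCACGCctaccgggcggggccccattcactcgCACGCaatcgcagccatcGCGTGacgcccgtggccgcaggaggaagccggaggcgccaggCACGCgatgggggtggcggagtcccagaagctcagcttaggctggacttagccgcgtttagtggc
Cyp1a1 +8.8 kb, intron 1, plus strand, chr9:57696537-57696836: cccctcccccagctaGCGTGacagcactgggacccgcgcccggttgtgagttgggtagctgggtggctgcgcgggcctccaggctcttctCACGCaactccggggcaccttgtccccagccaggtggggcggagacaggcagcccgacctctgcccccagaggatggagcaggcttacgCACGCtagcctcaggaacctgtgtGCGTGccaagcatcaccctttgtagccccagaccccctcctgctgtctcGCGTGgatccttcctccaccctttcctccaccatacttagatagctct
Cyp1b1 -0.8 kb, upstream, minus strand, chr17:79715724-79716023: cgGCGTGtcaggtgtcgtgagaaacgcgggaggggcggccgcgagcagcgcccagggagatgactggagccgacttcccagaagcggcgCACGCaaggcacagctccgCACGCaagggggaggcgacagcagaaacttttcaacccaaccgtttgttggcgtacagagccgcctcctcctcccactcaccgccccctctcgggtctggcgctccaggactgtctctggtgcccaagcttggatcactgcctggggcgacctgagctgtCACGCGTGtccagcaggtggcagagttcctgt
Ahr +14.3 kb, intron 2, minus strand, chr12:35520608-35520907: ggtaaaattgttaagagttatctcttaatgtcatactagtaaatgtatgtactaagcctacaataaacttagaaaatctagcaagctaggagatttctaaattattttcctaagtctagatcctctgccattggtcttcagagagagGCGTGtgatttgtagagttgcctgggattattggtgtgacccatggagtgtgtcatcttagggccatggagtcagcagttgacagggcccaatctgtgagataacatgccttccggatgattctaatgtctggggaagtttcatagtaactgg
Tiparp +5.4 kb, intron 2, plus strand, chr3:65533676-65533975: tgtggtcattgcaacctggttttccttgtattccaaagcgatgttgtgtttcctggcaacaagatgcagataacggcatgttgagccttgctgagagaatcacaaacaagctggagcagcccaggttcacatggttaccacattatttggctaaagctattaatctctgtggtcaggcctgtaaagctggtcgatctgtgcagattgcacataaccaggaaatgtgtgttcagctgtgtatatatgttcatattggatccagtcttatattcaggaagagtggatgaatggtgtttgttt
The stretch of *Cyp1a1* holds 5 cores, that of *Cyp1b1* also 5, that of *Ahrr* intron 3 has 4, the *Ahrr* TSS stretch 3, that of *Ahr* 1, and that of *Tiparp* 0.

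*Ahrr* (chromosome 13, 74211118 to 74292331, minus strand) encodes the repressor that competes with Ahr. Its TSS region (74292085 to 74292597, centre 10 bp upstream of the TSS) had 2.2 and 1.29 CPM (counts per 1000000, on totals scaled by the TMM method of edgeR) in BM, 2.23 and 1.77 in lung, and 2.12 and 1.73 in pancreas. It had 14.8 and 13.5 CPM in LI and 11.9 and 16.9 CPM in SI. Every intestinal library lay above every other library. The promoter of the main *Ahrr* transcript thus stood near the bottom of the scale outside the intestine and was open within it. The difference of the mean of LI and SI from the mean of BM, lung, and pancreas was 2.91 ± 0.20 on the log2 scale (SE; adjusted p = 1.3e-07, edgeR quasi-likelihood test with Benjamini-Hochberg adjustment over 49981 regions). Only 74 regions of the table had a larger log2 difference.

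Within *Ahrr*, the region at +32.1 kb (74259931 to 74260453) lies in intron 3 of the main transcript and has its centre 175 bp inside the start of a shorter *Ahrr* transcript. It had 18.9 and 31.4 CPM in BM, 31.7 and 29.1 in lung, 38 and 35.4 in pancreas, 68.9 and 80.6 in LI, and 48.7 and 79.0 in SI. Here the start of the shorter transcript was already open in all tissues, and more open in each than the region at the main TSS. The intestinal libraries lay above the others without overlap (2.27-fold, log2 1.18 ± 0.16, adjusted p = 4.9e-05, edgeR). A weak intergenic region at -9 kb (74301072 to 74301628) had 2.99 to 4.56 CPM outside the intestine and 5.86 to 6.72 CPM within it. Its difference was smaller (log2 0.71 ± 0.20, adjusted p = 0.0156) and was no longer called when pancreas replicate 1 was left out (adjusted p = 0.0540). All 3 regions of *Ahrr* were thus called higher in the intestine.

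*Cyp1a1* (chromosome 9, 57687928 to 57703824, plus strand) encodes the cytochrome P450 enzyme that is the classical readout of Ahr activity and clears its ligands. Its only region (57696444 to 57696984) lies in intron 1 of the main transcript, 899 bp upstream of the second TSS. It had 2.06 and 2.85 CPM in BM, 2.59 and 2.04 in lung, 3.71 and 3.13 in pancreas, 12 and 11.2 in LI, and 9.87 and 13.0 in SI. The lowest intestinal library was far above the highest other one, a pancreas library. The log2 difference was 2.09 ± 0.19 (adjusted p = 1.5e-06, edgeR).

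*Cyp1b1* (chromosome 17, 79706940 to 79715061, minus strand) encodes a related enzyme. Its only region (79715576 to 79716132) is centred 793 bp upstream of the TSS. It had 9.44 and 13.2 CPM in BM, 14.0 and 14.7 in lung, 16.5 and 15.7 in pancreas, 33.8 and 26.4 in LI, and 26.7 and 33.9 in SI. Again no intestinal library overlapped with the others, from a higher level outside the intestine than at *Cyp1a1* and with a smaller difference (log2 1.13 ± 0.15, adjusted p = 3.8e-05).

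*Tiparp* (chromosome 3, 65528447 to 65555518, plus strand) encodes the ADP-ribosyltransferase that restrains Ahr. Its promoter region at -0.3 kb (65527839 to 65528363) was open in all tissues, with 53.5 to 65.1 CPM in the 10 libraries and a log2 difference of 0.02 (95% interval -0.21 to 0.25, adjusted p = 0.911). The tissues differed further inside the gene. At +5.4 kb in intron 2 (65533574 to 65534077) the values were 0.881 and 1.24 CPM in BM, 7.33 and 5.91 in lung, 5.48 and 6.36 in pancreas, 13.3 and 14.0 in LI, and 15.9 and 9.27 in SI. This region showed 3 levels, with BM lowest, lung and pancreas between, and both intestinal tissues highest. BM was lower than each of the other tissues (adjusted p = 3.8e-06 against LI, 5.1e-06 against SI, 6.7e-05 against lung, and 1.4e-04 against pancreas, edgeR), and LI was 2.07-fold above lung (adjusted p = 0.0287) and 2.32-fold above pancreas (adjusted p = 0.0383). SI was 1.90-fold above lung (adjusted p = 0.0308) and 2.13-fold above pancreas (adjusted p = 0.0174). The log2 difference between intestine and the rest was 1.92 ± 0.20 (adjusted p = 4.3e-06).

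A second region of the same intron of *Tiparp*, at +13.3 kb (65541454 to 65541956), had 1.13 and 2.67 CPM in BM, 3.29 and 2.73 in lung, 3.59 and 2.80 in pancreas, 7.41 and 6.86 in LI, and 7.61 and 4.49 in SI. It was 2.47-fold higher in the intestine without overlap (log2 1.31 ± 0.25, adjusted p = 0.00105, edgeR). In pairs, however, LI against pancreas, SI against lung, and SI against pancreas were not called (adjusted p = 0.153, 0.0761, and 0.124, edgeR). By contrast, the region at +1.1 kb in intron 1 (65529280 to 65529885), closest to the start of 4931440P22Rik, did not separate the intestine (log2 0.05, 95% interval -0.23 to 0.33). It was lowest in BM, with 24.9 and 37.5 CPM against 38.7 to 53.1 CPM elsewhere, and BM was called lower than lung, pancreas, and LI (adjusted p = 0.0134, 0.0325, and 0.0288, edgeR).

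*Arnt* (chromosome 3, 95434367 to 95497240, plus strand) encodes the partner that Ahr shares with other factors, such as the hypoxia-inducible factors. Its promoter region at +0.1 kb (95434182 to 95434748) had 66.6 and 53.9 CPM in BM, 50.4 and 50.5 in lung, 45.5 and 44.1 in pancreas, 42.3 and 41.7 in LI, and 63.5 and 51.5 in SI. LI had the lowest mean and SI the highest after BM, and the intestinal contrast was near 0 (log2 -0.07, 95% interval -0.32 to 0.18, adjusted p = 0.739). BM against LI was the sole pair called (1.43-fold higher in BM, adjusted p = 0.0418). A weak region at +16.2 kb in intron 2 (95450307 to 95450880) had 2.62 to 4.45 CPM and a log2 difference of -0.16 (95% interval -0.62 to 0.30).

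**Figure D1:**
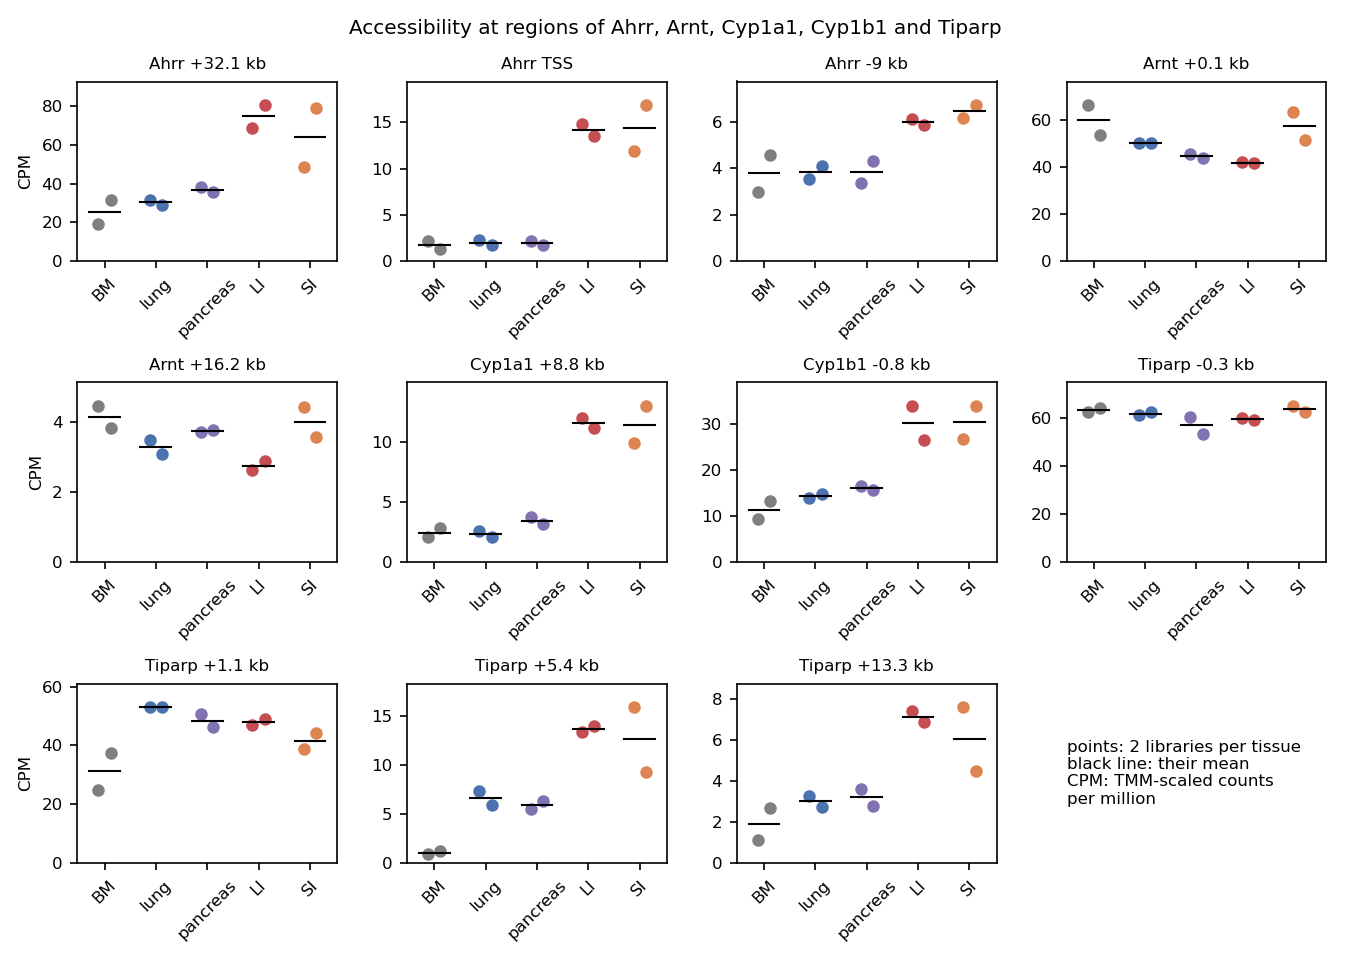
Accessibility (CPM, linear axis from 0) of the 11 regions of *Ahrr*, *Arnt*, *Cyp1a1*, *Cyp1b1*, and *Tiparp* in each tissue, with points for the 2 libraries and a line for their mean. The LI and SI points lie above all others at 7 regions, while *Arnt* and the *Tiparp* regions at -0.3 and +1.1 kb show no such step, and *Tiparp* +5.4 kb is near 1 CPM in BM.

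*Ahr* itself (chromosome 12, 35497979 to 35534989, minus strand) had 20 regions from 41.5 kb downstream to 72.8 kb upstream of its TSS. The promoter region at +0.2 kb had 20.2 to 34.6 CPM in the 10 libraries and was not called (log2 0.15, 95% interval -0.14 to 0.44, adjusted p = 0.479). The regions called different lay in introns, upstream, and downstream. At +14.3 kb in intron 2 the level was 0.489 and 0.966 CPM in BM, 1.06 and 1.05 in lung, 1.12 and 1.40 in pancreas, 11.6 and 10.2 in LI, and 6.26 and 10.2 in SI. That made it the most changed of the 31 regions (9.59-fold, log2 3.26 ± 0.24, adjusted p = 2.4e-07, edgeR). It was followed by +24.1 kb in intron 5 (6.37-fold, adjusted p = 1.6e-05), where the level outside the intestine was 0.324 to 1.14 CPM, only 3 reads in pancreas replicate 2, against 3.80 to 7.56 CPM within it. From these same data the paper already lists an element it names *Ahr* +14 kb as intestine-specific. It adds that earlier work found this element to depend on Ahr.

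Upstream of *Ahr*, the region at -35.3 kb had 1.06 to 2.59 CPM outside the intestine, 11.5 and 10.9 in LI, and 4.48 and 7.45 in SI (4.87-fold, adjusted p = 1.1e-05, edgeR). The region at -18.3 kb had 1.53 to 3.18 CPM outside and 5.44 to 7.15 within (2.99-fold, adjusted p = 9.5e-05). Those at -31.7 and -19.4 kb, 2.26-fold and 1.85-fold higher, also had no overlap between intestine and the rest (adjusted p = 0.00128 and 0.00615). The other called regions did overlap with the rest, at -29.7 kb (2.80-fold, adjusted p = 4.4e-05), +41.5 kb (2.96-fold, adjusted p = 0.00562), -44.2 kb (1.37-fold, adjusted p = 0.0160), and -11.2 kb (1.90-fold, adjusted p = 0.0303). The call at -11.2 kb was lost without BM replicate 1, lung replicate 2, LI replicate 2, pancreas replicate 1, or SI replicate 2 (adjusted p = 0.0690 to 0.229), and also with mean-count trends or with GC and width trends removed (adjusted p = 0.0627 and 0.0668). That at -44.2 kb was lost without lung replicate 1 or LI replicate 2 (adjusted p = 0.0727 and 0.118) and with GC and width trends removed (adjusted p = 0.0608). The other 9 *Ahr* regions away from the promoter were not called and had log2 differences of -0.25 to 0.54.

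**Figure D2:**
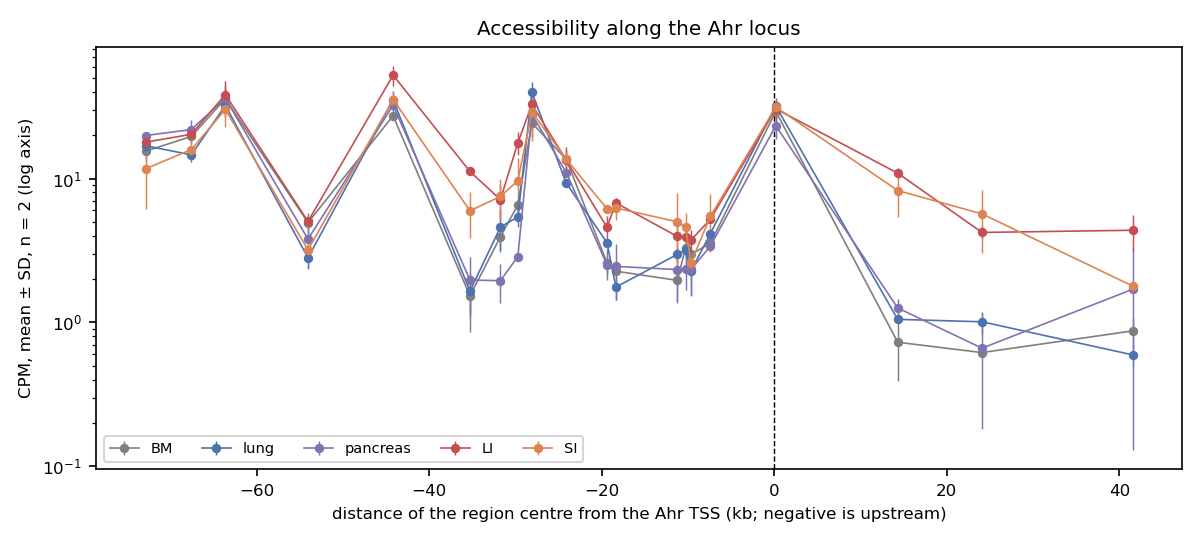
Accessibility of the 20 *Ahr* regions (CPM, log axis, mean ± SD of 2 libraries) against distance from the TSS in kb, with lines that join the regions of a tissue as a guide. The tissues overlap at the promoter (20.2 to 34.6 CPM), and LI and SI stand above the rest at -35.3, -18.3, +14.3, and +24.1 kb.

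Over the 31 regions, 17 were called higher in the intestine, against 14.9% of all regions, and 0 were called lower, against 8.51% of all (edgeR; also 0 at an unadjusted p under 0.05 and 0 by DESeq2). The 17 were 10 of 20 at *Ahr*, all 3 at *Ahrr*, the only region of *Cyp1a1* and of *Cyp1b1*, 2 of 4 at *Tiparp*, and 0 of 2 at *Arnt*. The median log2 difference was 0.71 over the 31 regions, 1.13 over the 11 outside *Ahr*, and 0.00 over all regions tested. In 13 of the 31, all 4 intestinal libraries lay above the other 6, against 5.32% of all regions. The F test over the 5 tissues called 16 of the 31, against 44.2% of all regions.

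**Figure D3:**
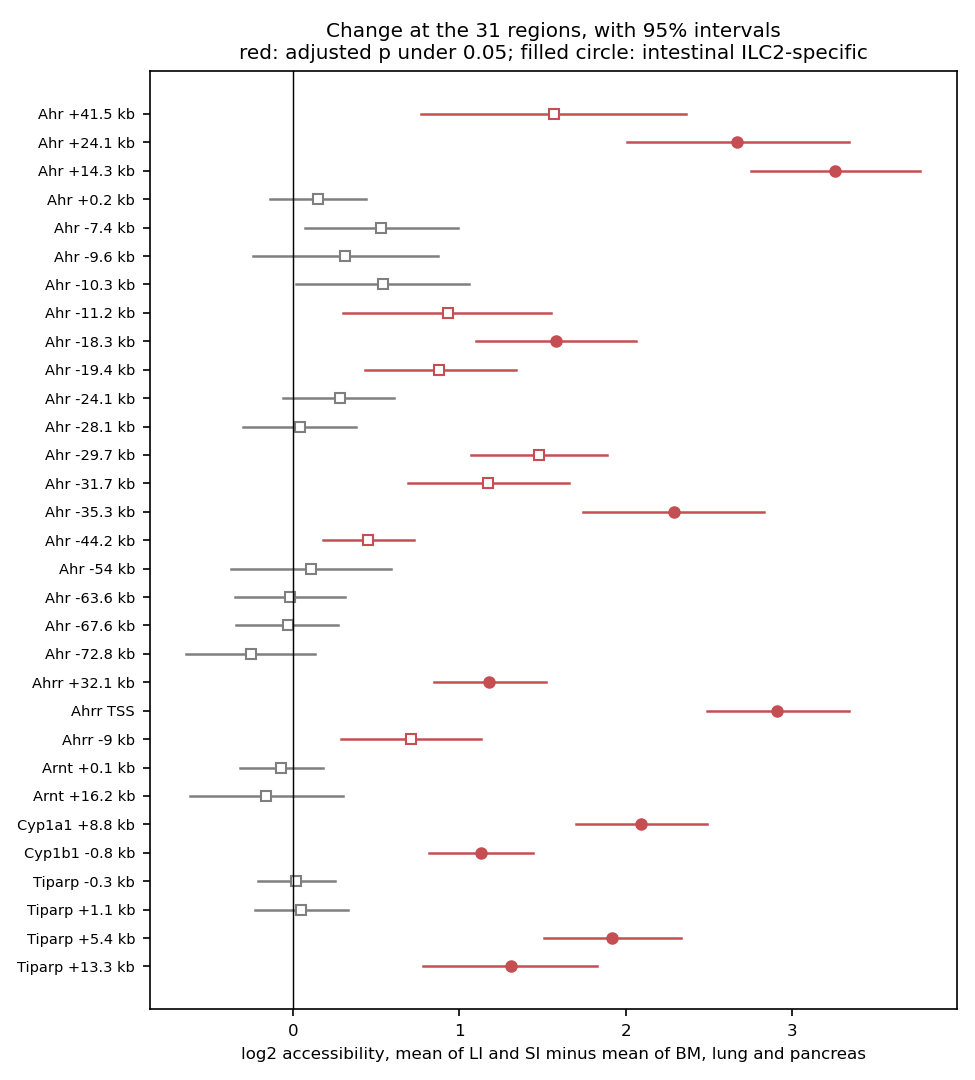
Log2 difference in accessibility between the mean of LI and SI and the mean of BM, lung, and pancreas at the 31 regions, with 95% intervals; red marks an adjusted p under 0.05 and filled circles mark intestinal ILC2-specific regions. *Ahr* +14.3 kb (3.26) and the *Ahrr* TSS (2.91) are farthest to the right, and no region is called to the left of 0.

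By the stricter definition of intestinal ILC2-specific open chromatin, LI and SI each higher than each of BM, lung, and pancreas at an unadjusted p under 0.05, 10 of the 31 regions qualified, against 2.18% of all. These were *Ahr* +24.1, +14.3, -18.3, and -35.3 kb, *Ahrr* +32.1 kb and TSS, *Cyp1a1*, *Cyp1b1*, and *Tiparp* +5.4 and +13.3 kb, and the libraries of the intestine did not overlap with the others at any of the 10. So 6 of 11 regions outside *Ahr* were of this kind, and 4 of 20 at *Ahr*. *Tiparp* +13.3 kb was no longer of this kind with adjusted p-values or with GC and width trends removed. It was also lost without any of lung replicate 1, lung replicate 2, LI replicate 2, pancreas replicate 1, pancreas replicate 2, or SI replicate 1. *Tiparp* +5.4 kb was lost without lung replicate 2 or SI replicate 1, and *Ahrr* +32.1 kb without SI replicate 2, while the other 7 were kept without any single library.

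Regions where a single tissue stood apart from each of the others were mostly at *Ahr*, which holds 20 of the 31 regions. LI was higher than each of the other tissues at 4 of the 31 regions, *Ahr* +41.5, -29.7, -35.3, and -44.2 kb, against 1.30% of all. At -44.2 kb, for example, LI had 46.6 and 58.0 CPM and the others 26.7 to 39.0 CPM. The region at -35.3 kb is not particular to LI, since it is also intestinal ILC2-specific, with SI above BM, lung, and pancreas. Pancreas was lower than each of the others at *Ahr* -29.7 and -31.7 kb, against 0.572% of all; at -29.7 kb it had 2.83 and 2.91 CPM and the other tissues 4.86 to 20.0 CPM. BM was lower than each of the others at *Tiparp* +5.4 kb, against 6.63% of all. When libraries were scaled by their size alone, LI was higher than each of the others at 0 regions by edgeR, and SI was at 1, *Ahr* -19.4 kb. The 4 regions higher in a single tissue became 0 without SI replicate 1, 1 without LI replicate 1, 2 without LI replicate 2, and 0 with adjusted p-values. The 3 lower calls at 2 *Ahr* regions and 1 *Tiparp* region became 6 without BM replicate 2, 1 without lung replicate 2 or pancreas replicate 1, and 1 with adjusted p-values.

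Between pairs of tissues, the calls followed the line between intestine and the rest. LI differed from BM at 15 of the 31 regions (30.9% of all regions), from lung at 12 (10.9%), and from pancreas at 11 (3.27%). SI differed from BM at 12 (25.8%), from lung at 9 (21.0%), and from pancreas at 12 (20.5%). LI or SI was the higher tissue in each of these calls except the *Arnt* promoter. Among the other tissues, BM differed from lung at 2 regions (19.0% of all), both at *Tiparp*, and from pancreas at 3 (24.2%). Lung and pancreas differed at 0 regions (5.82%; edgeR; 4 at an unadjusted p under 0.05 and 1 by DESeq2).

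LI and SI were called different at 0 of the 31 regions (8.44% of all; edgeR; 6 at an unadjusted p under 0.05 and 0 by DESeq2). The 95% interval of the LI minus SI difference was log2 -0.64 to 0.58 at the *Ahrr* TSS, -0.57 to 0.61 at *Cyp1a1*, -0.49 to 0.46 at *Cyp1b1*, and -0.48 to 0.73 at *Tiparp* +5.4 kb. Differences of that size in either direction are left within the error. The interval lay above 0 at *Ahr* -29.7 kb (0.24 to 1.49), -35.3 kb (0.11 to 1.70), -44.2 kb (0.14 to 0.99), +41.5 kb (0.09 to 2.46), and -72.8 kb (0.01 to 1.20), and below 0 at the *Arnt* promoter (-0.84 to -0.06). None of the 6 passed after adjustment (adjusted p = 0.0831 to 0.194, edgeR).

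Summed over its regions, *Ahrr* had 66.8 to 103 CPM in the intestine and 24.1 to 43.5 CPM elsewhere (2.48-fold, log2 1.31 ± 0.14, adjusted p = 1.1e-05, edgeR over 22130 genes). Of the 6 genes, *Ahr*, *Ahrr*, *Cyp1a1*, and *Cyp1b1* were called higher in the intestine, against 10.1% of all genes, and 0 were called lower by edgeR or by DESeq2, against 7.18% of all. The F test over tissues called these 4 as well, against 42.1% of all genes. The sum over *Ahr* moved by only 0.37 ± 0.11 (adjusted p = 0.0252), and the call was lost on leaving out any of BM replicate 1, lung replicate 1, LI replicate 2, pancreas replicate 1, pancreas replicate 2, or SI replicate 2 (adjusted p = 0.0519 to 0.111). The most open *Ahr* regions, the promoter and those at -28.1, -44.2, and -63.6 kb, had log2 differences of 0.15, 0.04, 0.45, and -0.02. *Tiparp*, whose sum came mostly from its regions at -0.3 and +1.1 kb, had 120 to 129 CPM in the intestine and 89.5 to 125 CPM elsewhere (log2 0.18 ± 0.09, adjusted p = 0.192), and *Arnt* had a log2 difference of -0.07 ± 0.10 (adjusted p = 0.670). 
In order of tissue means, the *Ahrr* sum was 94.9 ± 7.2 CPM in LI and 84.7 ± 25.3 in SI, followed by pancreas at 42.5 ± 1.49, lung at 36.2 ± 1.74, and BM at 30.7 ± 9.26 CPM (SD, n = 2). *Cyp1a1* and *Cyp1b1* had the step at the same place. At all 3 genes LI and SI were each called above pancreas, lung, and BM, and no call was made within either set of tissues. The *Ahr* sum was 294 ± 27.2 CPM in LI and 239 ± 48.6 in SI, followed by lung at 215 ± 20.2, pancreas at 202 ± 4.15, and BM at 201 ± 22.1 CPM, where only LI and BM were called different (adjusted p = 0.0203, edgeR). For *Arnt* the highest mean was in BM (64.4 ± 9.41 CPM) and the lowest in LI (44.8 ± 0.196 CPM), and for *Tiparp* the highest was in LI (128 ± 0.872 CPM) and the lowest in BM (97.6 ± 11.5 CPM), again the only pairs called (adjusted p = 0.0215 and 0.0384, edgeR).

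The genes whose summed accessibility was most like that of a member over the 10 libraries, among 18792 candidates, are given by Pearson's r as a description, since the points share tissues and libraries. For *Ahrr* they were *Arap2* (0.985), *1700061I17Rik* (0.980), and *Rasa2* (0.970), and for *Cyp1a1* they were *Map4k3* (0.974), *Rasa2* (0.968), and *1700061I17Rik* (0.966). *Cyp1b1* was most like *Trabd* (0.960), *Arap2* (0.958), and *Me1* (0.956). For *Ahr* they were *Mterf1b* (0.953), *Gm33098* (0.932), and *Gm42312* (0.926), for *Arnt* *Rad9a* (0.973), *Limd2* (0.971), and *Cenpm* (0.969), and for *Tiparp* *Gm5907* (0.959), *Gne* (0.948), and *Apln* (0.944).

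The core GCGTG, searched on both strands in the central 500 bp of each region, was found in 13 of the 31 regions (41.9%) and in 40.2% of all regions. Of the 13 regions with a core 7 were called higher in the intestine, and of the 18 without one 10 were. The most cores, 7, were at *Cyp1b1* and at *Tiparp* +1.1 kb, and the latter had a log2 difference of 0.05. Its share differed with base composition, at 71.2% of regions of 60 to 65% GC and 17.5% of those of 38 to 43% GC. The longer form TNGCGTG, which contains the core, was found in 7 of the 31 (22.6%) and in 8.05% of all. The longer form too differed with base composition, at 14.9% of regions of 60 to 65% GC and 3.89% of those of 38 to 43% GC. Members that held it had 60.2 to 74.1% GC, except *Arnt* +16.2 kb (41.8%). *Cyp1a1* held 4 of these longer sites, *Ahrr* +32.1 kb 3, *Cyp1b1* 2, and the *Ahrr* TSS 1, and all 4 regions were intestinal ILC2-specific. The promoters of *Ahr* and *Tiparp* and *Arnt* +16.2 kb each held 1 and were not called. The other 6 intestinal ILC2-specific regions, at *Ahr* and *Tiparp*, held none, although *Ahr* +14.3 kb held 1 core.

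Matches in such numbers were rare, as 20 regions of the table held at least 3 TNGCGTG sites and 5 held at least 4. Of these 20, 5 were called higher in the intestine (25.0%), against 15.1% of the 45956 regions with no site. *Cyp1a1* and *Ahrr* +32.1 kb, which are members, were among the 5, so the 25.0% is in part made by the chosen regions. The others were nearest to or inside *Ankrd33b*, *Gm15658*, and *Gramd3*, the last close to the threshold (adjusted p = 0.0498, edgeR). Of regions with 1 site 13.4% were higher, and of those with 2 sites 8.61%. Calls lower in the intestine were made at 8.70% of regions with no site, 6.35% with 1, and 5.74% with 2. Of the 20 regions with at least 3, 0 were lower. These shares were not matched for base composition. By motif enrichment, a different measure, the paper reports an Arnt:Ahr motif as over-represented in its intestine-specific regions. A match describes letters and is not a bound site.

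**Figure D4:**
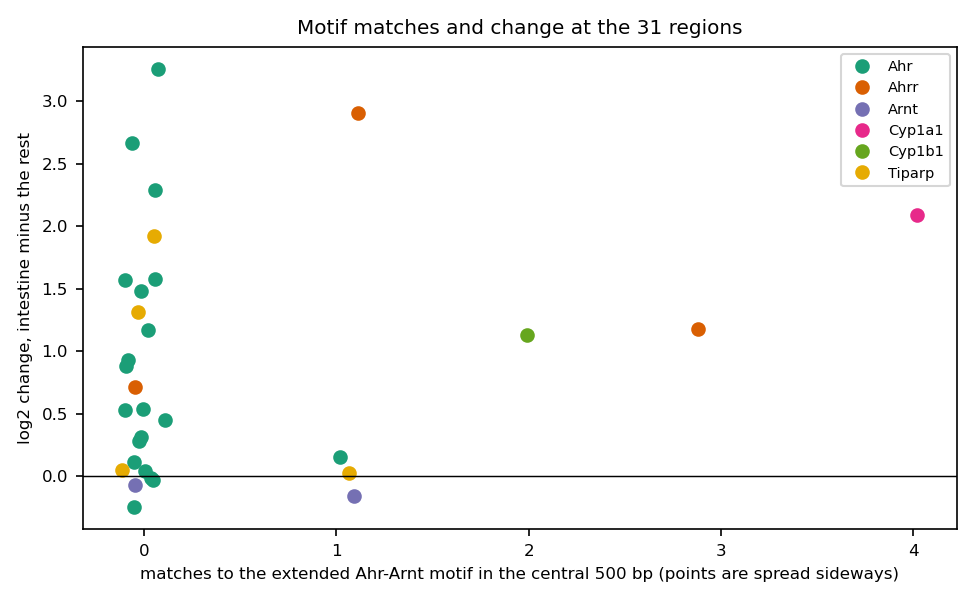
Log2 difference between intestine and the rest at the 31 regions (vertical axis) against the number of TNGCGTG matches in their central 500 bp (horizontal axis, points spread sideways), coloured by gene. The regions with 2 to 4 matches, at *Cyp1a1*, *Cyp1b1*, and *Ahrr*, lie between 1.13 and 2.09, while regions with 0 or 1 match run from -0.25 to 3.26.

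Of 23 further genes of the pathway, 18 had a region, and their sums gave 5 called higher (10.1% of all genes) and 1 lower (7.18%) in the intestine, with a median log2 difference of 0.15 against -0.04 over all genes. Among 7 targets with a region, 4 were higher: *Il10*, a regulatory cytokine (log2 1.28 ± 0.13, adjusted p = 1.2e-05, edgeR), *Nqo1*, a quinone reductase (0.86 ± 0.16, adjusted p = 0.00192), *Aldh3a1*, an aldehyde dehydrogenase (0.61 ± 0.18, adjusted p = 0.0300), and *Kit*, a growth factor receptor (0.39 ± 0.11, adjusted p = 0.0218). *Ikzf3*, which encodes Aiolos, had a log2 difference of -0.05 ± 0.11 summed over its 13 regions. The paper describes an intestinal ILC2-specific region in an intron of *Ikzf3*. Such a sum cannot show a change in a single region, and the single regions of *Ikzf3* are not reported here. *Ugt1a6a* and *Ugt1a6b*, counted as 2 of the 7 targets, share a single region, with a log2 difference of -0.55 ± 0.23 (adjusted p = 0.122). Of 8 partners and regulators with a region, 1 was called, and lower, the coactivator *Ncoa1* (-0.31 ± 0.10, adjusted p = 0.0461). Of 3 enzymes that form ligands from amino acids, 1 was higher, *Ido1* (0.86 ± 0.25, adjusted p = 0.0251). None of the 5 genes called higher had all intestinal libraries above the others. The mean of *Il10* was 56.3 CPM in LI, 114 in SI, and 61.9 in lung, and that of *Kit* was 98.9 CPM in BM, 176 in SI, 194 in pancreas, and 210 in lung. *Nqo1* had 20.6 CPM in both LI and BM, and *Ido1* had 4.33 CPM in LI and 4.65 in pancreas. *Aldh3a1* had 12.9 CPM in SI replicate 1 and 13.4 in pancreas replicate 2, and the F test over tissues did not call it (adjusted p = 0.0980, edgeR).

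Total counts were 10282987 to 32797872 per library, so that 1 CPM stood for 9.3 to 36.2 reads, and the 10 most covered regions took 6.91 to 23.5% of a library, most in LI replicate 1 and pancreas replicate 2. All 8 ILC2 markers had a promoter region, with sums of 145 to 188 CPM in the intestine and 187 to 218 CPM elsewhere. Among them *Il1rl1*, the gene of ST2, had 1.10 CPM in SI, the tissue not gated on ST2. Of the other cell types, B cell and acinar markers had no promoter region, 2 of 3 T cell markers had 2.45 to 8.82 CPM in sum, and 1 of 4 myeloid markers (*Cd14*) 10.3 to 23.1 CPM. Promoters of 2 of 4 epithelial markers summed to 14.4 to 15.2 CPM in LI, 14.9 to 25.8 in SI, 7.63 to 9.99 in BM, 12.7 to 12.8 in lung, and 17.4 to 20.0 in pancreas, with the highest library in SI. Promoters of 2 of 5 stromal and endothelial markers summed to 22.8 to 28.9 CPM in the intestine and 21.7 to 28.6 CPM elsewhere. The part of these markers in the differences was not tested.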

How the data were processed

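ATAC-seq of ILC2s from 5 tissues was analysed in 10 libraries, 2 per tissue, grouped by their labels. The authors deposited raw counts of reads per merged peak region without normalization. Per the labels and the methods of the study, reads were checked with FastQC 0.11.9, mapped uniquely to mm10 with Bowtie2 2.2.9, converted with SAMtools 1.8, and used for peak calling with MACS2 2.1.1 at q of 0.01, keeping peaks present in both replicates before merging over tissues. A region called in no tissue is therefore not seen here, and removal of duplicate reads and a shift for the transposase are not given in the sources used here. Columns not used numbered 0.

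The 49981 regions with at least 1 count were fitted with edgeR 4.0.16 (R 4.3.3; TMM, glmQLFit, glmQLFTest, tissue only, all 10 libraries), with Benjamini-Hochberg adjustment over all regions and calls at an adjusted p under 0.05; DESeq2 1.42.0 was an alternative. Intervals are at 95% and use the t distribution of the quasi-likelihood fit. Gene sums add the counts of all regions of a gene (22130 genes). The code was tested on simulated data. CPM uses TMM-scaled totals. The study names the replicates biological duplicates, and p-values measure the spread between them. Chi-square per degree of freedom between replicates was 12.8 to 56.1, so none was a copy of another. PCR reads are not independent molecules. The result of 1 marker list is not reported here.

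Genes and TSSs came from the RefSeq annotation of GRCm38, whose chromosome names and lengths were checked against the table. Members, gene lists, markers, and motifs were chosen with earlier results of these data known. The named regions are, for each gene, the one nearest to its main TSS and each one called in the intestinal contrast or specific to a tissue or to the intestine. For likeness, genes needed a mean sum of 5 CPM and no region shared with a member. Alternatives were other scalings (library size alone, DESeq2 size factors), other filters on low counts, DESeq2, the replicate number as a block, removal of trends with mean count or with GC content and width (loess, span 0.3), adjusted p-values, other rules for assigning regions to genes, and each library left out in turn.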

Additional observations from a re-analysis of the deposited data

How the results depend on the processing

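Depth limits the weakest regions most, since 1 CPM is 9.3 to 36.2 reads. Over the alternatives other than leaving out a library, 15 to 19 regions were higher and 0 lower in the intestine, 13 to 19 differed over tissues, 9 to 11 were intestinal ILC2-specific, and pairs of tissues gave 74 to 81 calls against 76; without single libraries these were 15 to 18, 0 to 1 (1 without SI replicate 2), 14 to 19, 9 to 10, and 58 to 85. The log2 differences of *Ahrr* (1.14 to 1.44), *Cyp1a1* (1.99 to 2.18), and *Cyp1b1* (1.03 to 1.22) stayed called without any single library. Regions higher in a single tissue, 4 as reported, became 1 with library size alone (SI at *Ahr* -19.4 kb, with none of the 4 kept), 2 with GC and width trends removed, 0 with adjusted p-values, and 0 to 4 without single libraries. Those lower in a single tissue, 3 as reported, became 5 with mean-count trends removed, 1 with adjusted p-values, and 1 to 6 without single libraries. The sum over *Ahr* was no longer called with GC and width trends removed (0.26, adjusted p = 0.0986) and ranged from 0.25 to 0.45 without single libraries. With mean-count trends removed, *Tiparp* was called (0.31, adjusted p = 0.0172), and *Arnt* changed sign in its sum (0.06, adjusted p = 0.756) and promoter (0.09), the latter also with GC and width trends removed (0.01). Without single libraries the *Arnt* promoter ranged from -0.16 to 0.00 and the *Tiparp* promoter from -0.01 to 0.05. The cause of these shifts was not tested. Replicate numbers were not taken to pair the libraries, since deviations of the same number correlated at -0.178 to 0.193 between tissues and not all pairs lay above 0.1, although LI with lung (0.124), LI with SI (0.193), lung with SI (0.154), and BM with LI (0.124) did. With the replicate number as a block, 17 regions were higher in the intestine, 11 were intestinal ILC2-specific (with *Ahr* -31.7 kb added), and 80 pairwise calls were made. Crossed numbers were not fitted.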
